A study of Homo sapiens with 4 samples.

Results

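Collagens, laminins, integrins and the matrix proteins around them were followed in Huh7, an established line from a human hepatocellular carcinoma, given hydrogen peroxide (H2O2) or mock medium. The members were all genes with a RefSeq mRNA model (identifier starting NM_) named as a collagen alpha chain, a laminin alpha, beta or gamma chain or an integrin alpha or beta subunit with a number or V, together with VCAN, FN1, SPARC, TNC, FBN1, FBN2, THBS1, NID1, NID2, HSPG2, AGRN and LOXL1 to LOXL4. That gave 92 of 42067 gene names in the files: 44 collagens, 12 laminin chains, 13 integrin alpha and 8 integrin beta subunits and 15 other matrix genes. COL4A3BP, ITGB1BP1, ITGB1BP2 and ITGB3BP share letters with these names but encode other proteins and were not members, and leukocyte integrin subunits named with other letters, such as ITGAM, fell outside the rule. Each gene was read from its mRNA model with the highest total read count.

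The treated group had received 300 µM H2O2 and the control group mock medium, both for 4 days with the medium renewed each day, and the labels name no genetic change in either group. Each group had 2 libraries, 1 with the letter H and 1 with the letter Q in its title, and a library is called here by its treatment and letter (mock H, H2O2 Q). The meaning of the letters is not given in the sources used here, and nothing in them says that the libraries came from separate cultures, so a p-value measures the spread between these libraries, which may be technical. Huh7 is 1 tumour line, so the stromal cells of a liver are not part of the model. The libraries held 78126878 to 88409567 mapped read mates, and the members took 1.78% and 1.49% of the counted reads in mock H and Q and 1.15% and 1.29% in H2O2 H and Q. A single gene, COL2A1, weighs on these shares. It had 515317 of 1847811 member reads in mock H and 167037 of 1610730 in mock Q. In H2O2 it had 79755 of 1303759 in H and 57149 of 1462384 in Q. Levels are TMM-scaled CPM (read counts relative to the effective library size), and differences between groups are log2(H2O2/mock).

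The extracellular matrix is the protein scaffold outside cells. Collagens assemble from alpha chains wound into a triple helix. Fibrillar collagens form the cables of connective tissue, type IV collagen forms the sheet of basement membranes, and laminins, trimers of an alpha, a beta and a gamma chain, form another sheet, joined to it by nidogens and the proteoglycan perlecan. Integrins are alpha-beta pairs in the cell membrane that bind these proteins outside the cell and the actin or keratin skeleton inside. In the liver, stellate cells make most fibrillar collagen, while hepatocytes secrete plasma fibronectin and normally rest on a sparse matrix without a continuous basement membrane.

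The labelled cell type was checked with marker genes. All 8 hepatocyte and Huh7 genes examined (ALB, AFP, APOA1, SERPINA1, TTR, HNF4A, TF and FGB) exceeded 1 CPM in every library, and their summed level was 17075 CPM in mock H, 5047 in mock Q, 19383 in H2O2 H and 10874 in H2O2 Q. That sum was lowest in mock Q and lower in Q than in H in both groups, but not every gene followed it: TTR was highest in mock Q, and HNF4A lowest in H2O2 Q. The 10 stellate cell and fibroblast markers summed to 45.6 to 66.1 CPM, mostly from PDGFRA and COL1A1. With RGS5 (2.27 to 5.44 CPM), these 3 exceeded 1 CPM in every library. ACTA2 and PDGFRB lay on both sides of 1 CPM, and 5 markers (DCN, LUM, THY1, COL3A1 and DES) stayed under 1 CPM in every library. Endothelial markers (7 genes) summed to 3.11 to 5.06 CPM. The 9 blood and macrophage markers summed to 54.3 to 103 CPM, mostly from the lysosomal gene CD68. CD14 (3.89 to 6.95 CPM) and ITGAM (1.41 to 4.58 CPM) also exceeded 1 CPM in every library. The other 6, among them PTPRC and CD163, stayed under 1 CPM in every library. Of the 5 bile duct markers, SOX9 and EPCAM were abundant and KRT19 was under 1 CPM. The 5 summed to 417 and 299 CPM in mock H and Q against 204 and 185 CPM in H2O2 H and Q. That difference came mostly from EPCAM, at 273 and 174 CPM in mock and 66.8 and 64.1 CPM in H2O2. SOX9 changed little, at 142 and 121 CPM in mock and 136 and 116 CPM in H2O2. KRT7 was highest in H2O2 Q (2.84 CPM). The part of these differences in the results below was not tested. In bulk RNA, fewer cells of a kind and less RNA per cell cannot be told apart.

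By mean level over the 4 libraries, fibronectin led the matrix genes of these cells. Per kilobase of transcript, which allows levels of different genes to be compared, the CPM per kilobase of FN1 were 961 and 639.7 in mock H and Q and 805 and 742 in H2O2 H and Q. COL2A1, which encodes the chain of cartilage type II collagen, came next with a mean over the 4 libraries of 392. Its values were 1049 and 272 in mock H and Q and 154 and 94.2 in H2O2 H and Q, so in mock H it stood above FN1. ITGB1, the beta subunit shared by most matrix-binding integrins, followed with a mean of 185. In H2O2 H and Q it measured 175 and 193, above COL2A1. Below these stood LAMB1 (70.0), the heparan sulfate proteoglycan agrin, AGRN (69.9), the type V collagen chain gene COL5A2 (63.0), NID1 (48.5), COL14A1 (43.8), COL18A1 (38.2) and ITGAV (34.8). LAMB1, AGRN and COL5A2 overlapped in range over the libraries, whereas ITGB1 lay above all of them: the lowest ITGB1 value was 168 and the highest LAMB1 value 96.7. Of the 92 members, 90 had a transcript length for this scale, and COL1A1 and COL24A1 had none.

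**Figure D1:**
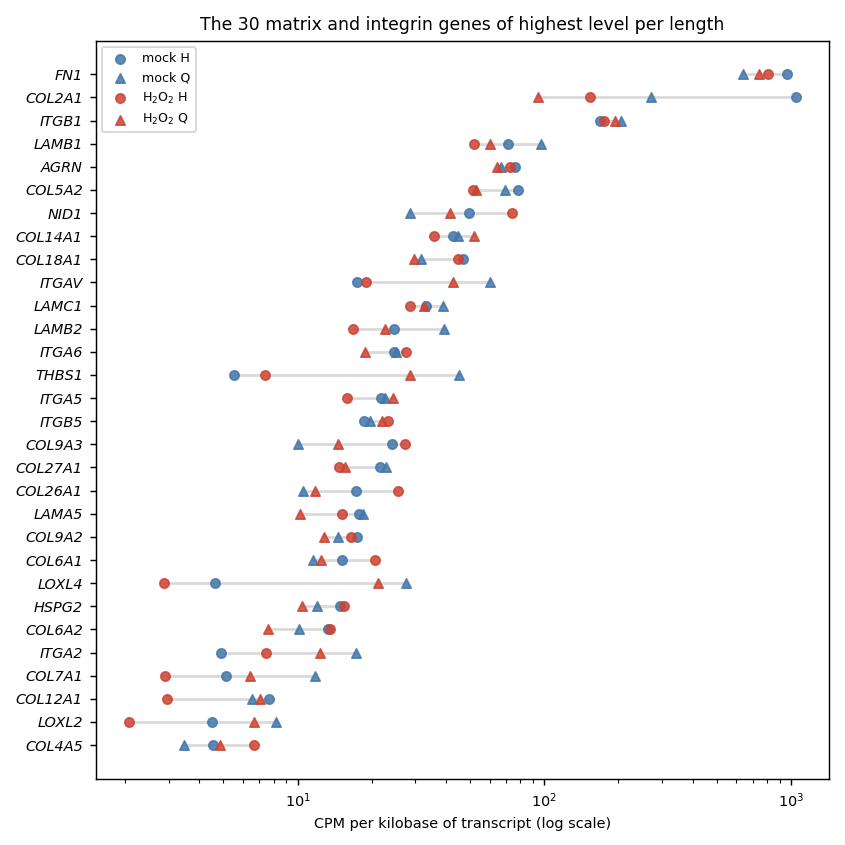
CPM per kilobase of transcript (log axis) for the 30 members of highest mean level, with 1 point per library (blue mock, red H2O2, circles letter H, triangles letter Q). FN1 and COL2A1 have the highest points, COL2A1 spans the widest range of the top 9 genes, and the points of ITGAV, THBS1, LOXL4 and COL7A1 separate by letter.

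The comparison of H2O2 with mock asked how matrix and integrin genes differed after 4 days of oxidant. Matrix genes leaned lower in H2O2: of the 88 members tested, 62 (70.5%) had a log2 fold change below 0, against 52.8% of all 27514 genes tested. Their median was −0.30 beside −0.03 over all genes. It was −0.21 between the H libraries and −0.34 between the Q libraries. The median moved with the library left out: it was −0.45 without mock H, −0.10 without mock Q, −0.16 without H2O2 H and −0.55 without H2O2 Q. Leaving out a library also leaves the letters unbalanced between the groups, and the median member differed by 0.36 between Q and H. These values therefore mix treatment and letter. With the letter as a block, the median was −0.23. Without mock Q, 48 of 89 members (53.9%) were lower, near the 49.6% of all genes in that fit. Only 32 of the 62 kept their sign without each library in turn.

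No member passed the test over all genes, and neither did any other gene: edgeR's quasi-likelihood test called 0 genes (0% of 27514) at an adjusted p of 5%, with an adjusted p of at least 0.719 for every member. At an unadjusted p under 0.05 it counted 1898 genes, while DESeq2 called 139 genes and limma 0 at the adjusted 5%. Among members, 7 had an unadjusted p under 0.05 and were lower (7.95%, against 3.79% of all genes) and 2 were higher (2.27%, against 3.11%). In 22 members both H2O2 values lay below both mock values (25.0%, against 21.3% of all genes), and in 10 they lay above (11.4%, against 18.1%). The count of separated members as a whole was near that of all genes, and the roles differed from each other in their counts.

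**Figure D2:**
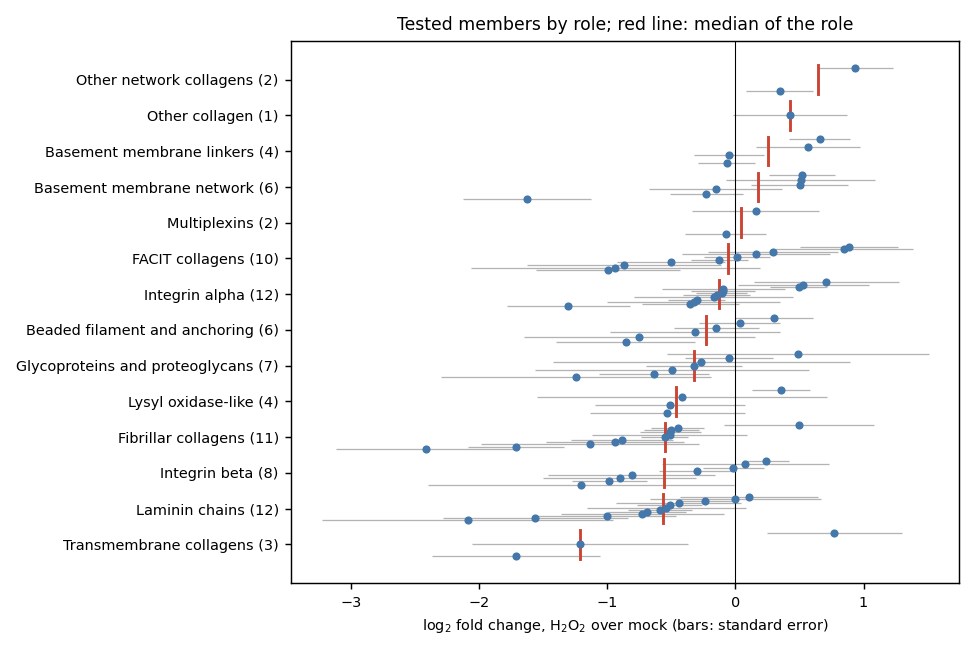
Log2 fold change of H2O2 over mock for the 88 tested members, grouped by role with the number of genes in brackets; points are genes, bars their standard errors and red lines the role medians. Fibrillar collagens and laminin chains lie mostly left of 0, with medians of −0.55 and −0.56, and basement membrane linkers and network collagens have medians above 0.

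Fibrillar collagens were lower in H2O2 in 10 of 11 genes, with a median of −0.55, and in 8 of the 11 both H2O2 libraries lay below both mock libraries (background 21.3%). COL2A1 had the most reads of them in every library. It measured 5321 and 1379 CPM in mock H and Q and 781 and 478 CPM in H2O2 H and Q (log2 fold change −2.41, SE 0.71, unadjusted p = 0.0177, edgeR adjusted p = 0.719). Mock H stood far above the rest, and the groups did not overlap. The log2 ratio of H2O2 to mock within a letter, taken from CPM plus 0.1, was −2.77 between the H libraries and −1.53 between the Q libraries, and the fold change was −1.12 without mock H and −3.08 without mock Q. With DESeq2 it was the one member called (−2.39, adjusted p = 0.0162).

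Type V collagen, a minor fibrillar type that helps start fibrils, and the related long collagen XXVII followed the same direction at smaller size. COL5A2 measured 553 and 491 CPM in mock H and Q and 363 and 376 CPM in H2O2 H and Q (log2 fold change −0.50, SE 0.21). COL27A1, a collagen gene of cartilage, measured 168 and 179 CPM in mock H and Q and 114 and 122 CPM in H2O2 H and Q (log2 fold change −0.55, SE 0.19), and its log2 ratio was −0.55 between the H libraries and −0.55 between the Q libraries. Both genes had narrow groups that did not overlap, and their fold changes without each library in turn were −0.59 to −0.40 and −0.59 to −0.51. COL5A3 lay at 23.6 and 30.9 CPM in mock and 17.3 and 21.0 CPM in H2O2 (−0.51, SE 0.24). COL5A1, another chain of type V collagen, had only 23 to 86 reads per library and measured 0.661 and 0.71 CPM in mock and 0.225 and 0.192 CPM in H2O2 (−1.71, SE 0.37, unadjusted p = 0.00542, adjusted p = 0.719), the smallest unadjusted p of all members. COL1A1, a chain of type I collagen, the main collagen of scars, measured 18.7 and 21.8 CPM in mock and 14.3 and 15.3 CPM in H2O2 (−0.45, SE 0.21), again with no overlap between groups.

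The remaining fibrillar genes were low or varied with the letter. COL1A2, the partner chain of COL1A1, lay at 0.434 and 0.38 CPM in mock and 0.127 and 0.293 CPM in H2O2, and COL11A1 at 0.671 and 0.702 CPM in mock and 0.46 and 0.284 CPM in H2O2, both lower in H2O2 without overlap and both under 100 reads in every library. COL3A1, of 7 to 78 reads, overlapped between groups (−1.14, SE 0.85). COL11A2 was higher in the Q libraries of both groups, with 6.44 and 17.6 CPM in mock and 5.18 and 11.7 CPM in H2O2 (−0.51, SE 0.60); its counts come from 1 of several copies of its model. COL24A1 was the one fibrillar gene with a positive value (0.50, SE 0.59). The count of lower genes was 10 under all scalings and other tools run, 11 without mock H and 9 without mock Q, and it stayed 10 without either H2O2 library. Its median was −0.84 without mock H.

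**Figure D3:**
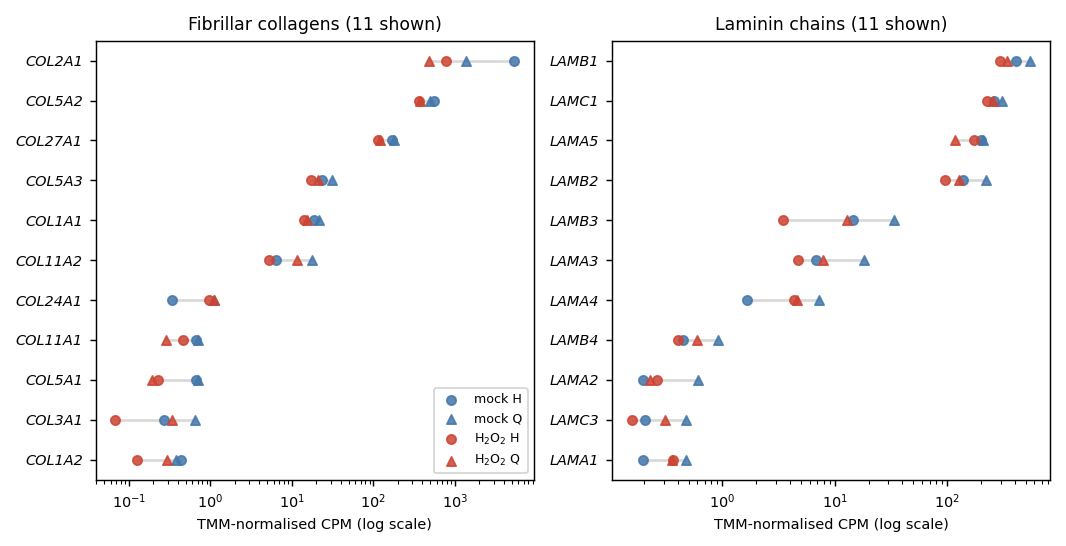
TMM-normalised CPM (log axis) of the 11 fibrillar collagens and of 11 laminin chains, 1 point per library (blue mock, red H2O2, circles letter H, triangles letter Q). In COL2A1, COL5A2, COL27A1, COL1A1 and LAMB1 both red points lie left of both blue points, and in LAMB3 and LAMA3 the triangles lie right of the circles of the same colour.

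The promoters of COL27A1 and COL5A3, 2 fibrillar genes lower in H2O2 in both letters, are shown because their 250 bases before the start hold no annotated exon in GENCODE 29. They come from RefSeq on GRCh38.p14, and the window of COL27A1 is chr9:114155287-114155536, plus strand, and that of COL5A3 chr19:10010505-10010754, minus strand. Capitals mark GC boxes, the letters GGGCGG or their reverse complement CCGCCC.
COL27A1: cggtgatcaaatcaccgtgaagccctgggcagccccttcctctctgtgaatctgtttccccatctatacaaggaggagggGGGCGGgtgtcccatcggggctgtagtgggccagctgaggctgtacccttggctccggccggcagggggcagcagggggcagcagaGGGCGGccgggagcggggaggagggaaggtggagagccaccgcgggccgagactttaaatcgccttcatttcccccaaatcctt
COL5A3: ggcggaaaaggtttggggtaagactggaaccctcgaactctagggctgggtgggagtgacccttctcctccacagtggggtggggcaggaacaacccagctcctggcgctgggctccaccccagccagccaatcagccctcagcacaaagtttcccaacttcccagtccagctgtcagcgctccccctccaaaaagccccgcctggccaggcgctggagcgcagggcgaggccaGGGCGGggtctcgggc
The windows hold 2 and 1 GC boxes, with GC contents of 64.4% and 66.0%. A GC box on either strand was present in 39 of the 69 members with a promoter in that table (56.5%) and in 42.6% of all 35116 promoters. All motifs were searched on both strands. Each member entered with 1 promoter, whereas every promoter in that table counted in the shares of all, so the sets may not be alike. The AP-1 letters TGANTCA stood in 1 member (1.45%, against 6.57% of all), the cyclic AMP element TGACGTCA in 1, FN1 (against 1.65% of all), and TATAAA in 6 (8.7%, against 10.7%). These matches describe the windows only.

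Type IV collagen, the network of basement membranes, showed no common direction, with 3 of 6 chains higher and 3 lower. The ubiquitous pair COL4A1 and COL4A2, transcribed away from each other from a shared promoter region, was nearly silent. COL4A1 measured 0.413 and 0.793 CPM in mock and 0.489 and 1.23 CPM in H2O2 (0.51, SE 0.58) and COL4A2 0.31 and 0.504 CPM in mock and 0.245 and 0.485 CPM in H2O2 (−0.16, SE 0.52). The X-linked chain gene COL4A5 was the main type IV gene of these cells, with 29.6 and 22.4 CPM in mock H and Q and 43.0 and 31.6 CPM in H2O2 H and Q (log2 fold change 0.52, SE 0.26). Both its H2O2 values exceeded both mock values, and the log2 ratio was 0.54 between the H libraries and 0.49 between the Q libraries. COL4A4, a chain of the kidney and cochlea network, ran the other way at low level, with 1.21 and 1.73 CPM in mock and 0.284 and 0.661 CPM in H2O2 (−1.63, SE 0.50, unadjusted p = 0.0211, adjusted p = 0.719). COL4A3 (−0.23, SE 0.29) and COL4A6 (0.50, SE 0.38) overlapped between groups.

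Among proteins that tie the basement membrane together, nidogen genes stood higher in H2O2. NID2 measured 2.82 and 3.11 CPM in mock H and Q and 4.44 and 4.92 CPM in H2O2 H and Q (log2 fold change 0.66, SE 0.24, unadjusted p = 0.038, adjusted p = 0.719), without overlap. Its exons overlap the gene RTRAF on the opposite strand over 29.96% of their bases, and with the use of strand not given, reads of the 2 genes cannot be told apart there. NID1 was far more abundant, at 291 and 167 CPM in mock H and Q and 435 and 244 CPM in H2O2 H and Q (log2 fold change 0.57, SE 0.41). Its log2 ratio was 0.58 between the H libraries and 0.54 between the Q libraries, but the letters differed as much as the groups, so the groups overlapped. The perlecan gene HSPG2 (−0.05, SE 0.27) and AGRN (−0.07, SE 0.22) hardly differed: AGRN lay at 559 and 490.0 CPM in mock and 531 and 469 CPM in H2O2. COL18A1, the precursor of endostatin and a known hepatocyte product, lay at 255 and 172 CPM in mock and 243 and 162 CPM in H2O2 (−0.08, SE 0.32), higher in the H libraries of both groups, and its exons overlap SLC19A1 on the opposite strand over 16.4% of their bases. The related COL15A1 was scarce (0.341 and 0.339 CPM in mock and 0.245 and 0.51 CPM in H2O2, 0.16, SE 0.50).

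FACIT collagens, which decorate the surface of fibrils, split evenly, with 5 of 10 higher and 5 lower. COL14A1, the most abundant of them, measured 275 and 288 CPM in mock and 232 and 336 CPM in H2O2 (0.01, SE 0.26). COL12A1 was low in 1 library, at 89.7 and 76.5 CPM in mock and 34.8 and 82.4 CPM in H2O2 (−0.50, SE 0.42), and without H2O2 H the value was −0.01. The type IX collagen genes COL9A2 (49.9 and 41.5 CPM in mock and 47.3 and 36.6 CPM in H2O2) and COL9A3 (60.1 and 25.0 CPM in mock and 67.9 and 36.3 CPM in H2O2), partners of type II collagen in cartilage fibrils, did not share the low H2O2 values of COL2A1, with log2 fold changes of −0.12, SE 0.22 and 0.29, SE 0.51. The remaining chain gene, COL9A1, of 10 to 41 reads per library, was lower without overlap, at 0.33 and 0.339 CPM in mock and 0.0979 and 0.234 CPM in H2O2 (−0.995, SE 0.57), over −1.74 to −0.51 without each library in turn. COL19A1 (0.558 and 0.355 CPM in mock and 0.901 and 0.786 CPM in H2O2, 0.89, SE 0.38) and COL21A1 (0.84, SE 0.54) were higher without overlap, both under 100 reads in every library. COL20A1 (−0.87, SE 0.76) and COL22A1 (0.16, SE 0.58) overlapped between groups.

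Type VI collagen, which forms beaded filaments, was expressed from COL6A1 (64.4 and 49.1 CPM in mock and 86.9 and 52.9 CPM in H2O2, 0.30, SE 0.31) and COL6A2 (45.9 and 35.0 CPM in mock and 46.7 and 26.3 CPM in H2O2, −0.15, SE 0.33), while COL6A3, the chain that completes the usual trimer, had 7 to 41 reads per library. All 3 overlapped between groups. COL7A1, the anchoring fibril collagen of skin, lay at 47.4 and 109 CPM in mock and 26.8 and 59.2 CPM in H2O2 (−0.86, SE 0.54), and the log2 ratio was −0.82 between the H libraries and −0.87 between the Q libraries. Both letters thus had nearly the same ratio, but Q stood so far above H that the groups overlapped. COL28A1 (2.66 and 4.18 CPM in mock and 3.21 and 3.79 CPM in H2O2) and the scarce COL6A6 differed by 0.03, SE 0.31, and −0.31, SE 0.66. COL26A1 lay at 51.1 and 31.3 CPM in mock and 76.0 and 34.8 CPM in H2O2 (0.43, SE 0.44). The short-chain network collagens were higher without overlap: COL8A2 measured 0.867 and 1.18 CPM in mock and 1.94 and 1.98 CPM in H2O2 (0.93, SE 0.30, unadjusted p = 0.0243, adjusted p = 0.719) and COL10A1, known from growth plate cartilage, 3.77 and 2.84 CPM in mock and 4.2 and 4.21 CPM in H2O2 (0.35, SE 0.26). Of the transmembrane collagens, COL13A1 (0.77, SE 0.53), COL17A1 (−1.21, SE 0.84) and COL23A1 (−1.71, SE 0.66, unadjusted p = 0.0462) had at most 89 reads in any library.

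Laminin chains were lower in H2O2 in 11 of 12 genes, with a median of −0.56. The 11 include LAMA4, whose log2 fold change of −0.0013 (SE 0.67) was practically 0. Of the 12, 5 were lower without overlap (background 21.3%). The 5 were LAMB1, LAMB2, LAMB3, LAMA5 and LAMC1. The abundant ones were LAMB1, LAMC1 and LAMA5, the chains of laminin-511, and LAMB2. Their mean CPM per kilobase were 70.0 for LAMB1, 33.2 for LAMC1, 15.4 for LAMA5 and 25.8 for LAMB2. LAMB1 measured 409.6 and 553 CPM in mock H and Q and 296 and 344 CPM in H2O2 H and Q (log2 fold change −0.59, SE 0.25), LAMA5 202 and 211 CPM in mock and 173 and 117 CPM in H2O2 (−0.51, SE 0.25) and LAMC1 261 and 306 CPM in mock and 225 and 257 CPM in H2O2 (−0.24, SE 0.21). LAMB2, the beta chain of laminin-521 and of mature basement membranes, measured 140.0 and 222 CPM in mock and 95.4 and 129 CPM in H2O2 (−0.69, SE 0.31). Their fold changes kept their sign without each library in turn, over −0.78 to −0.36 for LAMB1, −0.82 to −0.24 for LAMA5, −0.34 to −0.12 for LAMC1 and −0.98 to −0.32 for LAMB2.

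LAMB3 and LAMA3, a beta and an alpha chain of the laminin that anchors epithelia, had larger fold changes than the laminin-511 chains. LAMB3 measured 14.6 and 33.7 CPM in mock H and Q and 3.44 and 12.9 CPM in H2O2 H and Q (log2 fold change −1.56, SE 0.72), and LAMA3 6.75 and 18.3 CPM in mock and 4.69 and 7.84 CPM in H2O2 (−1.002, SE 0.54). Both were lower in H2O2 in each letter: the log2 ratio of LAMB3 was −2.05 between the H libraries and −1.38 between the Q libraries, and that of LAMA3 −0.52 between the H libraries and −1.22 between the Q libraries. The Q libraries stood higher than the H libraries of the same group, and H2O2 Q overlapped mock H for LAMA3. Without mock Q the values were −0.84 for LAMB3 and −0.11 for LAMA3. LAMA4, a chain of vascular laminins, lay at 1.66 and 7.22 CPM in mock and 4.32 and 4.57 CPM in H2O2, and LAMA1, LAMA2, LAMB4 and LAMC3 had at most 110 reads in any library. The count of lower laminins was 7 of 12 without mock Q, with a median of −0.12, 12 without mock H, with a median of −0.92, and 10 to 12 under the other settings run.

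Integrin subunits were lower in 15 of the 20 tested, with a median of −0.16, and 4 lay lower and 2 higher without overlap, shares no larger than those of all genes (21.3% and 18.1%). Without H2O2 H the alpha subunits lower went from 9 to 5 of 12 and their median from −0.13 to 0.14, and it was −0.36 without H2O2 Q. The median of the beta subunits, −0.55 over all libraries, was −0.18 without mock Q and −0.23 without H2O2 H. The hub ITGB1 did not differ beyond its spread, with 625 and 764 CPM in mock H and Q and 651 and 722 CPM in H2O2 H and Q (log2 fold change −0.02, SE 0.24). Its log2 ratio was 0.06 between the H libraries and −0.08 between the Q libraries. ITGB4, which pairs with ITGA6 to bind laminin in hemidesmosomes, was lower, at 9.42 and 6.56 CPM in mock H and Q and 4.49 and 3.59 CPM in H2O2 H and Q (log2 fold change −0.98, SE 0.29, unadjusted p = 0.0187, adjusted p = 0.719). The groups did not overlap, and the log2 ratio was −1.05 between the H libraries and −0.85 between the Q libraries. ITGA3, the alpha chain of a laminin receptor, was lower as well, at 24.6 and 9.9 CPM in mock H and Q and 8.17 and 5.8 CPM in H2O2 H and Q (log2 fold change −1.31, SE 0.48, unadjusted p = 0.0406, adjusted p = 0.719). Mock H was highest in ITGA3, and without it the fold change was −0.49. ITGA6 overlapped between groups, at 138 and 141 CPM in mock and 155 and 106 CPM in H2O2 (−0.10, SE 0.25), and the laminin receptor chain ITGA7 differed by −0.11, SE 0.20.

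Collagen-binding integrins went different ways. ITGA1, which pairs with ITGB1 and prefers type IV collagen, was higher, at 31.7 and 25.8 CPM in mock H and Q and 44.7 and 36.2 CPM in H2O2 H and Q (log2 fold change 0.49, SE 0.22), with no overlap and with a log2 ratio of 0.49 between the H libraries and 0.49 between the Q libraries. ITGA2, the alpha chain of another collagen receptor, measured 38.3 and 136 CPM in mock and 58.4 and 96.6 CPM in H2O2 (−0.17, SE 0.62), in which the Q libraries were the 2 highest. The low ITGA10 (−0.35, SE 0.38) and ITGA11 (−0.30, SE 0.22) complete this class, and ITGA11 was lower without overlap. For receptors of the RGD sequence of fibronectin and vitronectin, ITGA5 measured 96.7 and 101 CPM in mock and 70.2 and 108 CPM in H2O2 (−0.15, SE 0.26), ITGAV 122 and 423 CPM in mock and 133 and 301 CPM in H2O2 (−0.33, SE 0.68) and ITGB5 80.9 and 86.3 CPM in mock and 101 and 96.2 CPM in H2O2 (0.24, SE 0.18). ITGB5 was higher without overlap by a small amount. ITGB3 (−0.30, SE 0.30), ITGB6 (−1.21, SE 1.19) and ITGB8 (−0.81, SE 0.65), other partners of ITGAV, overlapped between groups. Other annotated genes share 51.6% of the exon bases of ITGB3 and 20.6% of those of ITGB6, and 42.1% for ITGB7, so those 3 levels are uncertain. ITGA2B, the platelet integrin alpha chain, lay at 4.79 and 1.81 CPM in mock and 7.12 and 3.66 CPM in H2O2 (0.71, SE 0.57). ITGA9 (0.53, SE 0.51) and ITGA4 (−0.10, SE 0.48), which share ligands, and the leukocyte chains ITGB2 (0.08, SE 0.65) and ITGB7 (−0.90, SE 0.60) were all under 2 CPM.

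**Figure D4:**
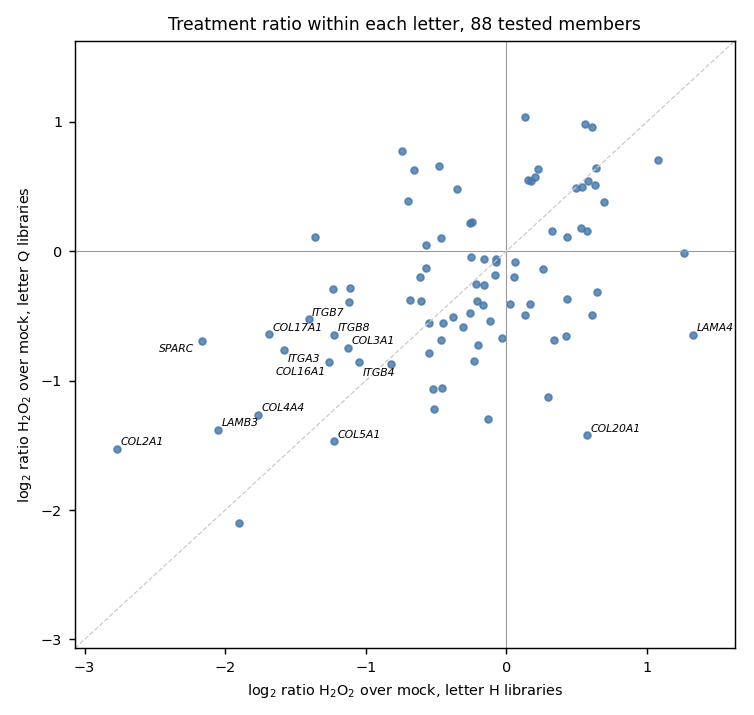
Log2 ratio of H2O2 over mock within letter H (horizontal) and within letter Q (vertical) for the 88 tested members, from CPM plus 0.1; the dashed line marks equal ratios. In the lower left quadrant are 45 members, among them COL2A1, LAMB3 and COL5A1, while 18 are higher in both letters and 25 have opposite signs.

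Adhesive glycoproteins and proteoglycans had 6 of 7 genes lower, but in 5 of the 7 (THBS1, VCAN, FBN1, SPARC and FBN2) both Q libraries stood above both H libraries (background 23.9%). The count and the median of −0.32 moved with the library left out. Without mock Q, 3 of 7 were lower, with a median of 0.18, and without H2O2 H 4 were (−0.04). The median was −0.88 without mock H and −1.75 without H2O2 Q. These fits leave the letters unbalanced between groups, and the median letter difference of this role was 1.97. Within letters the medians were −0.20 (H) and −0.41 (Q). The letter block gave 5 of 7 lower, with a median of −0.12. FN1 measured 8560.0 and 5697 CPM in mock H and Q and 7167 and 6610.0 CPM in H2O2 H and Q (log2 fold change −0.05, SE 0.34), with overlap between groups. THBS1, which encodes thrombospondin-1, a matricellular activator of TGF-beta, measured 42.8 and 352 CPM in mock H and Q and 57.3 and 223 CPM in H2O2 H and Q (−0.50, SE 1.07). VCAN, which encodes the large proteoglycan versican, measured 9.05 and 82.8 CPM in mock H and Q and 12.2 and 64.2 CPM in H2O2 H and Q (−0.27, SE 1.16). In both genes the 2 Q libraries stood far above the 2 H libraries, and no treatment difference was detectable beside that gap. FBN1, of elastic microfibrils, measured 24.9 and 45.6 CPM in mock and 22.1 and 34.2 CPM in H2O2 (−0.32, SE 0.38). TNC, SPARC and FBN2 had at most 137 reads in any library, and their values were −0.63, SE 0.43, −1.25, SE 1.05 and 0.49, SE 1.02.

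Of the lysyl oxidase-like enzymes, which cross-link collagen and elastin, LOXL4 was the most abundant, at 16.9 and 100.3 CPM in mock H and Q and 10.5 and 77.4 CPM in H2O2 H and Q (−0.42, SE 1.13), and it too followed the letter. LOXL2 measured 16.0 and 28.9 CPM in mock and 7.34 and 23.7 CPM in H2O2 (−0.53, SE 0.61). LOXL3 was higher without overlap, at 6.52 and 7.9 CPM in mock and 9.46 and 8.97 CPM in H2O2 (0.35, SE 0.23), and its exons overlap HTRA2 on the opposite strand over 14.3% of their bases. LOXL1 lay at 2.55 and 0.966 CPM in mock and 1.63 and 0.828 CPM in H2O2 (−0.51, SE 0.59), higher in the H libraries.

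More members passed the test between letters than between treatments, but the 2 fits were not alike. The main treatment fit left the letter difference in its spread, whereas the letter fit held both terms. With both terms, 35 of 88 members had an unadjusted edgeR p under 0.05 for treatment and 38 for letter. Among all 27514 genes these counts were 5223 and 6799. At an adjusted p of 5%, 1 member was called for treatment in that fit. In an additive fit of treatment and letter, 14 of 88 members were higher in Q past an adjusted p of 5% (15.9%, against 2.17% of all genes, edgeR) and 4 were lower (4.55%, against 2.68%). In 34 members both Q values exceeded both H values (38.6%, against 23.9%), and in 12 both were lower (13.6%, against 21.8%). The median member differed by 0.36 and the median of all genes by 0.03. With total-count scaling the median of all genes moved to 0.28 and that of the members to 0.60, and 18 members (20.5%, against 6.03% of all genes) were then called higher and 1 lower (1.14%, against 1.42%).

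Genes higher in Q came from several roles. LOXL4 (log2 difference 2.72, adjusted p = 0.011), VCAN (2.79, adjusted p = 0.0126), COL16A1 (2.67, adjusted p = 0.0156), THBS1 (2.50, adjusted p = 0.0211) and ITGB6 (2.85, adjusted p = 0.0241) differed by over 2 log2 units, and the difference of COL7A1 (1.17, adjusted p = 0.0221) was smaller. COL16A1, a FACIT collagen, measured 1.92 and 10.4 CPM in mock and 0.744 and 5.69 CPM in H2O2. Also called higher were ITGAV (1.48, adjusted p = 0.0235), ITGB8 (1.41, adjusted p = 0.027), LAMB3 (1.55, adjusted p = 0.0271), COL11A2 (1.31, adjusted p = 0.0283), LOXL2 (1.27, adjusted p = 0.0391) and FBN1 (0.75, adjusted p = 0.0444), and ITGA2 (1.28, adjusted p = 0.04998). Other partners of ITGAV did not pass, with ITGB3 at −0.27, adjusted p = 0.564, ITGB5 at 0.01, adjusted p = 0.975 and ITGB1 at 0.22, adjusted p = 0.393. The 4 members called lower in Q were COL9A3 (−1.08, adjusted p = 0.0276), NID1 (−0.82, adjusted p = 0.0322), COL26A1 (−0.92, adjusted p = 0.0349) and ITGA2B (−1.18, adjusted p = 0.042). COL2A1 was also lower in Q but did not pass (−1.33, adjusted p = 0.0581). The hepatocyte marker sum was lower in Q in both groups, as given above, and its part in these differences was not tested. With 1 library per treatment and letter, whether the treatment difference depended on the letter could not be tested.

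**Figure D5:**
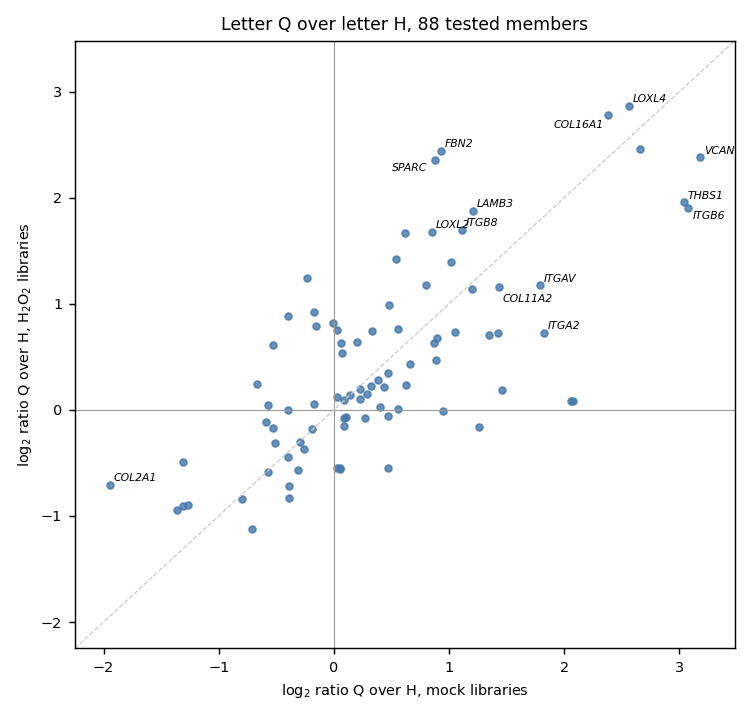
Log2 ratio of letter Q over letter H in the mock libraries (horizontal) and in the H2O2 libraries (vertical) for the 88 tested members, from CPM plus 0.1; the dashed line marks equal ratios. LOXL4, COL16A1, VCAN, THBS1 and ITGB6 lie at the upper right, with Q above H in both groups, and COL2A1 at the lower left.

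The promoter of THBS1 is shown as that of a gene with a clear letter difference and no annotated exon in the window (chr15:39580829-39581078, plus strand, RefSeq on GRCh38.p14). Capitals mark its 4 GC boxes (GGGCGG or CCGCCC), and the GC content is 69.6%.
THBS1: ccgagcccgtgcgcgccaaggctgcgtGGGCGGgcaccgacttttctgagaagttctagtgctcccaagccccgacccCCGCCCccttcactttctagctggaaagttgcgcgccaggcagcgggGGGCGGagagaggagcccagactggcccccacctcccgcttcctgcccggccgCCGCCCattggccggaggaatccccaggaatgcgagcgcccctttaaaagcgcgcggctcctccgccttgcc
TGANTCA, TGACGTCA and TATAAA had no match in this window.

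Genes that act with the members were read from 4 further lists, and no gene of these lists passed the test of H2O2 against mock over all genes. Collagen processing enzymes and chaperones had 15 of 25 tested higher and 10 lower (median 0.11). P4HA1, of collagen prolyl hydroxylation, and PLOD2 and LOX, of cross-linking, were highest in mock H and lowest in mock Q, with LOX at 455 and 101 CPM in mock and 239.9 and 188 CPM in H2O2, PLOD2 at 628 and 213 CPM in mock and 264 and 258 CPM in H2O2 and P4HA1 at 204 and 39.2 CPM in mock and 86.9 and 77.3 CPM in H2O2. P4HA2 was the 1 gene of the 25 lower without overlap (130.02 and 66.4 CPM in mock and 45.3 and 58.2 CPM in H2O2, −0.92, SE 0.36; background 21.3%). In the other direction, 6 of the 25 were higher without overlap (background 18.1%). They were PLOD3, LEPRE1, GLT25D1, TLL1, MIA3 and ADAMTS3, with log2 fold changes from 0.17 (MIA3) to 0.94 (ADAMTS3). SERPINH1, the collagen chaperone HSP47, lay at 109 and 156 CPM in mock and 95.2 and 129 CPM in H2O2 (−0.24, SE 0.27). ADAMTS3, a protease known to trim procollagen II, was higher (4.62 and 7.02 CPM in mock and 10.7 and 11.7 CPM in H2O2, 0.94, SE 0.29, unadjusted p = 0.0205, adjusted p = 0.719).

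Integrin adhesion complex genes had 19 of 28 lower and 9 higher (median −0.08). The integrin activator FERMT2 was higher (51.6 and 64.0 CPM in mock and 80.8 and 93.7 CPM in H2O2, 0.59, SE 0.21, adjusted p = 0.719), and TLN1 did not differ beyond its spread (−0.06, SE 0.22). FLNA, an actin cross-linker that binds integrin tails, followed the letter, at 72.1 and 359 CPM in mock and 55.4 and 160.1 CPM in H2O2. Other matrix receptors had 8 of 15 higher and 7 lower (median 0.08), and both the collagen receptor DDR1 (31.7 and 42.0 CPM in mock and 23.4 and 28.9 CPM in H2O2, −0.50, SE 0.24) and the laminin receptor dystroglycan, DAG1 (198 and 218 CPM in mock and 169.5 and 157 CPM in H2O2, −0.35, SE 0.19), were lower without overlap. DDR2, another collagen receptor (0.434 and 0.842 CPM in mock and 0.93 and 0.962 CPM in H2O2, 0.56, SE 0.42), and the hyaluronan receptor HMMR (67.7 and 32.5 CPM in mock and 118 and 70.3 CPM in H2O2, 0.91, SE 0.44) were higher without overlap. TGF-beta signalling genes had 13 of 20 lower and 7 higher (median −0.04). Both the signal carrier SMAD3 (134 and 144 CPM in mock and 66.2 and 97.2 CPM in H2O2, −0.77, SE 0.25) and the inhibitor SMAD7 (35.9 and 40.5 CPM in mock and 20.6 and 27.8 CPM in H2O2, −0.66, SE 0.23) were lower without overlap. By letter, 13 of the 88 genes tested in the 4 lists were called higher in Q (14.8%, against 2.17% of all genes), among them TGFB2 (2.06, adjusted p = 0.0195), LTBP1 (1.505, adjusted p = 0.0232) and BMP1 (1.38, adjusted p = 0.0241), and 6 lower (6.82%, against 2.68%), among them GPC3 (−1.04, adjusted p = 0.0345).

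The 4 members left out by the filter on low counts were COL25A1 (27, 5, 7 and 6 reads, with the mock libraries first and H before Q), COL6A5 (2, 50, 9 and 2), COL8A1 (4, 4, 1 and 7) and ITGA8 (7, 11, 8 and 1). Members of under 100 reads did pass it, and for those the counting error alone is large, so their levels place them near the limit of detection and not as absent.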

How the data were processed

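RNA of 4 Huh7 libraries was compared, 2 mock and 2 H2O2, grouped by the treatment label; libraries H and Q are those of the titles. Cuffdiff, TopHat (1.3.3), Bowtie (0.12.2) and CASAVA are named in the submitters' processing notes, as are the builds GRCh37, hg19 and mm8, without roles. The counter, the annotation and any use of strand are not given in the sources used here. For each of 58146 transcript models the deposited tables hold a whole-number count and an FPKM, per the file headers. The authors' FPKM served only for alternatives, since it does not follow count over length. Deposited alignment summaries gave mapped mates.

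Each gene was read from 1 model, the mRNA model of the highest total. Totals were 103851326 to 113082498 reads, 1.22 to 1.35 times the mapped mates, so reads were counted more than once; whether genes with many short exons, such as collagens, gain most was not tested, and levels between genes carry that limit. The edgeR 4.0.16 filter filterByExpr (minimum count 10) left 27514 genes. TMM factors were 0.933, 1.12, 0.903 and 1.06 for the mock (H, Q) and H2O2 (H, Q) libraries. H2O2 against mock used the two-sided quasi-likelihood test with treatment alone (2 residual degrees of freedom), Q against H the letter in an additive fit (1). Both had Benjamini-Hochberg adjustment at 5% and were tried on simulated counts. Those counts were drawn with the spread that the fits had estimated, so they cannot show how the tests hold for these data. SE is the absolute log2 fold change over the root of the F statistic. Lengths came from GENCODE 29, matched by RefSeq accession. Alternatives used DESeq2 1.42.0, limma 3.58.1, other scalings, filters and rows, a letter block and leaving out each library.

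The members and lists were chosen with earlier results of these data known. Named members were the 8 of smallest p in each direction, the 6 highest per length, the 6 of smallest letter p and the COL4A1-COL4A2, COL6, laminin and ITGB1 families, of which some results are not reported here; other members and listed genes were named to complete their role, after their values were seen. Counting intervals are not given, since repeated counting inflates the reads.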

Additional observations from a re-analysis of the deposited data

Results flagged for a closer look

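In 3 members with at least 100 reads in some library, H2O2 and mock differed in opposite directions in the letters, by more than 0.5 log2 units in each. LAMA4, the alpha chain of vascular laminins, had a log2 ratio of H2O2 to mock of 1.32 within letter H and −0.65 within letter Q, from 1.66 and 7.22 CPM in mock and 4.32 and 4.57 CPM in H2O2. COL20A1, a FACIT collagen, had 0.57 within letter H and −1.42 within letter Q, from 0.361 and 1.85 CPM in mock and 0.587 and 0.627 CPM in H2O2. FBN2, of elastic microfibrils, had −0.74 within letter H and 0.77 within letter Q, from 0.248 and 0.561 CPM in mock and 0.108 and 1.03 CPM in H2O2. Mock H and mock Q differed most in LAMA4 and COL20A1, and the H2O2 libraries in FBN2. With 1 library for each treatment and letter the difference was not tested.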

How the results depend on the processing

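Genes called for H2O2 against mock were 0, but 139 with DESeq2, 9 with no filter, 45 with the letter as replicate block, and 0 to 13 leaving out 1 library (13 without mock Q). Called members were 0, but 1 with DESeq2 (COL2A1) and 1 with the block. The letters are not stated to pair libraries. The deviations of same-letter libraries correlated at 0.47 across genes, and the block gave 60 of 88 members lower with a median of −0.23. The member median was −0.18 with limma on log2(FPKM + 1) and −0.55 to −0.10 leaving out 1 library, and members apart between groups were then 18 to 24 higher and 30 to 55 lower, as fewer libraries have to separate. All genes apart were then 29.7% to 35.7% higher and 31.2% to 40.6% lower, against 19.8% to 27.0% and 33.7% to 61.1% of members. For Q against H, called genes were 1332, but 3594 with no filter, 2050 with total-count scaling and 694 with upper quartile scaling, and called members 18, but 31 with no filter. Apart from the fewer libraries and genes, the cause was not tested. Of 44 named members tested, 17 changed sign leaving out 1 library, over these ranges of log2 fold change: AGRN −0.17 to 0.038, COL16A1 −3.02 to 0.74, COL4A1 −0.28 to 1.05, COL4A2 −0.71 to 0.25, COL6A1 −0.10 to 0.63, COL6A2 −0.62 to 0.22, COL6A3 −1.56 to 0.75, FN1 −0.32 to 0.28, ITGA2 −0.80 to 1.01, ITGA4 −0.75 to 0.35, ITGA5 −0.47 to 0.14, ITGA6 −0.40 to 0.17, ITGAV −1.0 to 0.83, ITGB1 −0.15 to 0.13, LOXL4 −2.45 to 1.37, THBS1 −1.75 to 1.71, VCAN −1.88 to 2.07. Under other settings 4 changed sign: FN1 to 0.0016 with limma on FPKM, ITGA2 to 0.055 with the block and 0.21 and 0.2088 with limma (pseudocounts 1 and 0.1), ITGB1 to 0.014 with DESeq2 and 0.0344 with limma, and VCAN to 0.025 with the block and 0.0561 and 0.066 with limma. The other 148 leave-one-out and 426 other values of named members kept their sign and their side of the threshold, apart from COL2A1 with DESeq2 and 1 member with the block. With 2 libraries per group, members of under 100 reads are limited by counting error as well.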
